A study of Mus musculus with 3 samples.

Results

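Most naive CD4+ T cells sorted from mouse spleen without stimulation had no detected UMI of 4 genes that a T cell receptor (TCR) signal switches on early, but in a small share several were counted, and these cells were examined here. They were taken from the library of unstimulated wild-type (WT) cells, among barcodes with more than 200 genes, under 15% mitochondrial UMIs, at least 1500 UMIs (unique molecular identifiers, counted transcripts) and no UMI of Foxp3 or S100a4, which mark regulatory and memory T cells. Of 8253 barcodes 6861 passed, and the 351 cells whose UMIs of Nr4a1, Egr1, Egr2 and Cd69 added up to at least 4 were the early-response cells, chosen by these measured UMIs, 5.12% of the filtered cells (exact Clopper-Pearson 95% interval 4.61 to 5.66%) and a small part of the 32505 barcodes of the whole series. They were set against the 4161 filtered cells (60.7%) in which that sum was 0, called comparison cells below, where at this depth 0 UMIs does not show that a gene was not expressed, while the cells with a sum of 1 to 3 entered neither class.

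The study sequenced 3 libraries of CD4+ T cells from spleens of C57BL/6 mice, male and 5 to 10 weeks old per the study's methods, after magnetic enrichment of naive CD4+ cells and sorting of live 7AAD-CD3+CD4+ cells. The unstimulated WT cells carried Ift20 f/f alleles without Cre and were labelled with DPBS as treatment. The stimulated WT library had the same genotype and 24 h of anti-CD3 and anti-CD28 antibodies at 1 μg/mL each, and the stimulated IFT20-KO library was Ift20 f/f CD4 cre, in which Cre under the Cd4 promoter deletes Ift20 in T cells, with the same stimulation. Each condition was 1 library and the number of mice behind it is not given in the sources used here, so no test between conditions or cell classes was possible, and all intervals cover counting error alone.

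A ligated TCR activates the kinases LCK and ZAP-70, and calcium with calcineurin and NFAT, RAS with ERK, and NF-kB carry the signal to the nucleus. Immediate-early genes need no new protein synthesis: Egr1 and Egr2 encode zinc finger factors, Nr4a1 encodes the orphan nuclear receptor NUR77, widely used to report TCR signal strength, and Cd69 encodes a surface protein that retains activated cells in tissue by pulling the egress receptor S1PR1 off the membrane. Naive T cells also receive weak signals from self peptides on MHC, and dissociation of tissue can by itself switch on immediate-early and heat shock genes.

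The depth of both classes was close. The early-response cells had a median of 5050 UMIs and 1811 genes, the comparison cells 4711 UMIs and 1688 genes. Mitochondrial UMIs were at a median of 2.23% and 2.27%, and ribosomal protein genes took 33.6% and 35.2%. T cell identity did not set them apart: the 7 T cell markers had a median log2 ratio of 0.03 (early-response over comparison cells), and their summed level was 4063 against 3995 CPM (UMIs per 1000000 UMIs of the class). Markers of other cells were mostly at 0 in the early-response cells, with 6 of 10 B cell, 7 of 10 myeloid, 3 of 6 dendritic, 3 of 8 NK and cytotoxic, all 4 gamma-delta T and all 6 erythroid and platelet genes without a UMI. The B cell list summed to 251 against 300 CPM, carried by Ighm, while Cd79a and Ms4a1 were at 0. The myeloid list (most abundant gene Cst3) summed to 81.1 against 81.8 CPM and the dendritic list (Bst2) to 105 against 108 CPM. The CD8 list summed to 24.8 against 32.1 CPM, all of it Cd8b1 in the early-response cells. The NK and cytotoxic list, led by Klrd1, summed to 106 against 76.0 CPM, and 61 of the UMIs behind it were Ccl5 in a single cell. The regulatory T cell list (154 against 153 CPM) and the memory list (2587 against 2643 CPM) stood level. Of the barcodes in the unstimulated library 125 also occurred in the stimulated WT library and 141 in the IFT20-KO library, among them 9 and 8 early-response cells.

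The rule genes themselves chose the cells, so their values describe and do not test. On GRCm38 (GENCODE M21) Nr4a1 (ENSMUSG00000023034) spans chr15:101254269-101274795 on the plus strand, Egr2 (ENSMUSG00000037868) chr10:67535475-67542188 on the plus strand and Cd69 (ENSMUSG00000030156) chr6:129267325-129275436 on the minus strand. The sum ran from 4 to 65 UMIs with a median of 6, and 163 of the 351 cells held 4 or 5. A long tail carried most of the signal: the 79 cells with 12 or more UMIs held 52.4% of the rule-gene UMIs. Cd69 was the broadest, with a UMI in 320 cells (594 CPM, 95% Poisson interval 560 to 629). Egr1 had a UMI in 243 cells (562 CPM, 529 to 596), Nr4a1 in 128 (373 CPM, 346 to 401) and Egr2 in 108 (112 CPM, 97.7 to 128). All 4 genes were seen together in 54 cells, 3 in 85, 2 in 116 and a lone gene in 96. The 351 cells held 91.7% of the Egr2 UMIs of all filtered cells, 85.5% of Nr4a1, 69.4% of Egr1 and 30.2% of Cd69. Most Cd69 UMIs thus lay outside the class that they helped to choose. In the 1568 cells with a sum of 1, the UMI was Cd69 in 1307, Egr1 in 201, Nr4a1 in 52 and Egr2 in 8.

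**Figure D1:**
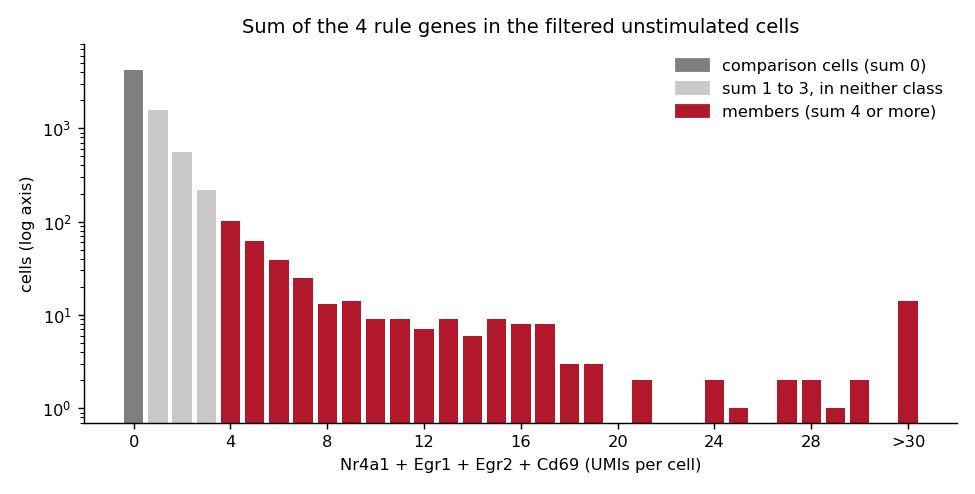
Number of filtered unstimulated cells (log axis) at each sum of UMIs of Nr4a1, Egr1, Egr2 and Cd69, with sums over 30 gathered in the last bar. The 4161 comparison cells stand at 0, and the 351 early-response cells form a tail from 4 to 65.

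The 4 transcripts kept company with each other. When cells were sorted by the sum of the other 3 genes, Nr4a1 stood at 3.32 CPM where that sum was 0, at 8.24 where it was 1, at 31.95 where it was 2 to 3 and at 334 where it was 4 or more. Egr2 went from 0.395 through 0.986 and 3.30 to 108 CPM along the same steps, and Egr1 from 17.2 through 34.9 and 72.0 to 486 CPM. Cd69 had the shallowest slope, from 94.8 through 153 and 239 to 448 CPM. The counting intervals of neighbouring steps did not overlap for Nr4a1, Egr1 and Cd69, while the 3 lowest Egr2 steps, on 8, 8 and 14 UMIs, overlapped in turn. The sort left no cell type that should lack these genes, so a background from free RNA could not be read.

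Relatives of the rule genes that the rule did not use were far higher in the early-response cells. Nr4a3, the NOR-1 member of the NUR77 family, had 74 UMIs in the 351 early-response cells and 7 in the 4161 comparison cells (37.5 against 0.347 CPM, log2 ratio 6.76, exact binomial 95% interval 5.64 to 8.12). Egr3, which with Egr2 restrains T cell activation, had 88 against 16 UMIs (44.6 against 0.792 CPM, 5.82, 5.04 to 6.68). Nr4a2 had 19 against 3 UMIs (log2 ratio 6.02, 4.25 to 8.42), the 19 in 6 early-response cells, and Egr4 none in either class. Nr4a3 UMIs lay in 25 early-response cells and Egr3 UMIs in 53. The cell with the most held 42.1% of the Nr4a2 UMIs and, for Nr4a3, 20.3%. For Nr4a3, Egr3 and Nr4a2 a class more than 10 times smaller thus held more of the transcript. All of these lay under the 10 CPM over all filtered cells that a gene needed to be counted among the 7064 genes compared. The EGR corepressors passed it: Nab2 was at 128 against 40.5 CPM (log2 ratio 1.66, 1.45 to 1.86) and Nab1 at 57.2 against 29.0 CPM (0.98, 0.68 to 1.28), and the median of the NR4A and EGR list, 1.32, rested on these 2 genes.

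Promoter sequence is shown for the rule genes Nr4a1 and Egr2 and for Nfkbid and Tagap, both higher in the early-response cells. It is the 250 bases before a start site as RefSeq gives them (build GRCm38.p6, gene strand, 5′ to 3′). Among the 12 genes looked up, 10 had an entry (Cd69 and Egr3 had none), and the windows were searched on both strands for the CRE (TGACGTCA), the EGR motif (GCGNGGGCG), the AP-1 motif (TGANTCA), the CArG box bound by serum response factor, and the NF-kB consensus. Capitals mark each match. The windows are Nr4a1 chr15:101266596-101266845 (plus strand, inside the annotated gene but in no exon, EGR motif), Egr2 chr10:67537619-67537868 (plus strand, inside the annotated gene but in no exon, CArG box), Nfkbid chr7:30422156-30422405 (plus strand, inside the annotated gene but in no exon, CRE and 2 NF-kB matches) and Tagap chr17:7925750-7925999 (plus strand, upstream of the gene and in an intron of E430024P14Rik, EGR motif).
Nr4a1: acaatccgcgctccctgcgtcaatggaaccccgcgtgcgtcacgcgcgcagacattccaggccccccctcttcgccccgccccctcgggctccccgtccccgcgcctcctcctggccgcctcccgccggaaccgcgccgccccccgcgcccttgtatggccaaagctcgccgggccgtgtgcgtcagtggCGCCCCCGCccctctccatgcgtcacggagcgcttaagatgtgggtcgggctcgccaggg
Egr2: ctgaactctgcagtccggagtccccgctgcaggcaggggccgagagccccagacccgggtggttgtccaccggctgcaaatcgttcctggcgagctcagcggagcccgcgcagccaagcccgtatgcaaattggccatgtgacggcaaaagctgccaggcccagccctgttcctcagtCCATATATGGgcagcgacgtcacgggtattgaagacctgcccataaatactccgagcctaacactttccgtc
Nfkbid: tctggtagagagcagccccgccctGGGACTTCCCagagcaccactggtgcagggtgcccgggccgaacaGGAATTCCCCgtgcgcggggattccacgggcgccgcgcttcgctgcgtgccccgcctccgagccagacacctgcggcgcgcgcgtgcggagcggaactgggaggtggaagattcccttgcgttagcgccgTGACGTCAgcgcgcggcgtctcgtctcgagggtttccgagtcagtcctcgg
Tagap: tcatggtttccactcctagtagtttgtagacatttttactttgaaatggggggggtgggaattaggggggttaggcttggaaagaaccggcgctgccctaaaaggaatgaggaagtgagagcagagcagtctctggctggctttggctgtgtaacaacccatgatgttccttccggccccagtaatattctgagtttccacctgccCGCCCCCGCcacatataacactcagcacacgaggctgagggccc

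Of 32851 windows of this length in the table, 4.7% held the EGR motif, 1.55% the CRE, 1.47% the CArG box, 6.75% the AP-1 motif and 7.25% the NF-kB consensus. The EGR match lay 60 to 52 bases before the start of Nr4a1 and 44 to 36 bases before that of Tagap, the CRE 51 to 44 and the NF-kB matches 226 to 217 and 181 to 172 bases before that of Nfkbid, and the CArG box 72 to 63 bases before that of Egr2. The matches within a printed window did not overlap. Windows of Nr4a3, Plk3, Nab2, Tnf and Id3 held none of these letters, that of Fos held 1 NF-kB match, and the other 2 starts of Nfkbid had none. Egr2 has 5 windows in the table, of which 4 hold a CArG box, while the remaining window holds 2 overlapping NF-kB matches and no CArG box. The matches describe sequence and no binding was measured.

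Of 7064 genes at 10 CPM or more, 43 (0.609%) were at least 2-fold higher in the early-response cells and 12 (0.17%) at least 2-fold lower. The median log2 ratio of all of them was 0.03, with a 5th to 95th percentile range from -0.41 to 0.47. TCR and immunoglobulin segments made up 3 of the higher and 3 of the lower genes. Of the 43 higher genes, 9 reached the 10 CPM only through cells outside the comparison class, 6 of them among the 20 with the highest ratio. These 6 were Plk3, Fos, Hivep3, Icam1, Cks2 and Med7, and their place among the 7064 genes rests on cells where they were high. Of the others among the 20, Nfkbid had the highest ratio.

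Among the 7064 genes at 10 CPM or more over all filtered cells, Plk3, a stress-induced kinase gene, had the highest ratio, with 154 UMIs against 162 (78.0 CPM, 66.2 to 91.4, against 8.02 CPM, 6.83 to 9.35, log2 ratio 3.28, 2.95 to 3.61). In the libraries stimulated for 24 h it stood at 41.3 CPM in WT and 34.2 CPM in IFT20-KO cells. Nfkbid encodes the nuclear IkB protein IkBNS, a cofactor of NF-kB, and stood at 164 CPM (147 to 183) against 17.6 CPM (15.8 to 19.6), a log2 ratio of 3.22 (2.998 to 3.44), with 41.3 and 32.6 CPM in the stimulated libraries. Both genes were thus higher per UMI in the early-response cells than in the mean of either stimulated library. Fos, the AP-1 subunit and classical immediate-early gene, was at 43.1 CPM (34.4 to 53.2) against 6.88 CPM (5.79 to 8.12), a log2 ratio of 2.65 (2.24 to 3.05), and at 17.0 and 13.3 CPM after stimulation.

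Tagap, Tnf, Id3, Myc and Dusp2 were also among the 20 genes with the highest ratio. Tagap, a GTPase-activating protein gene of activated T cells, was at 180 CPM (162 to 200) against 48.2 CPM (45.2 to 51.3), a log2 ratio of 1.90. Tnf was at 88.2 CPM (75.5 to 102) against 25.4 CPM (23.2 to 27.6), a log2 ratio of 1.80. Id3, an inhibitor of E proteins and a target of EGR1 in developing T cells, was at 377 CPM (350 to 405) against 112 CPM (107 to 117), a log2 ratio of 1.75. As a share of UMIs, its level in the early-response cells lay above the 212 and 230 CPM of the stimulated WT and IFT20-KO libraries. Levels per cell were not compared. Myc, the driver of growth, was at 183 CPM (165 to 203) against 67.8 CPM (64.2 to 71.5), a log2 ratio of 1.43, and below the 263 CPM of stimulated WT cells. Dusp2, the nuclear phosphatase of ERK, was at 401 CPM (374 to 430) against 163 CPM (157 to 169), a log2 ratio of 1.30.

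The rest of the 20 were Rilpl2 (1.88), Hspa4l (1.80), Gch1 (1.79), Hivep3 (1.72), Icam1 (1.69), Cks2 (1.68), Nab2 (1.66), Tnfrsf4 (1.63), Fasl (1.48), Tgif1 (1.30), Med7 (1.25) and Itm2a (1.25), with the log2 ratio in parentheses. Gch1 encodes the enzyme that starts tetrahydrobiopterin synthesis, Icam1 the ligand of LFA-1, Fasl the death ligand and Tnfrsf4 the costimulator OX40. A single cell held 24.2% of the 66 Tnfrsf4 UMIs and 22.0% of the 59 Cks2 UMIs of the early-response cells, against 3.25% for Plk3 and 3.09% for Id3. For each of the 20 the counting interval of the ratio lay above 0. They were chosen by this same ratio, so these intervals are no separate support. Only Plk3, Nfkbid, Fos, Tagap, Tnf, Id3, Cks2, Nab2 and Myc had ratios past 2-fold under all 14 alternative settings. A changed minimum level leaves a ratio as it is, and Plk3, Nfkbid, Fos, Tnf, Cks2 and Nab2 lay under the minimum of 50 CPM. The other 11 of the 20 fell under 2-fold in at least 1 setting and are given at their lowest. With only cells of a sum of 4 to 11 the log2 ratio was 0.97 for Rilpl2, 0.73 for Hspa4l, 0.39 for Hivep3, 0.41 for Fasl, 0.86 for Dusp2 and 0.43 for Itm2a. With each cell thinned to 1500 UMIs and members taken at 2 or more rule-gene UMIs, it was 0.52 for Gch1, 0.89 for Icam1, 0.91 for Tnfrsf4 and 0.17 for Med7. With members of 2 or more UMIs of Nr4a1, Egr1 and Egr2, Cd69 not counted, it was 0.83 for Tgif1. The threshold thus changed along with the depth or the rule genes.

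**Figure D2:**
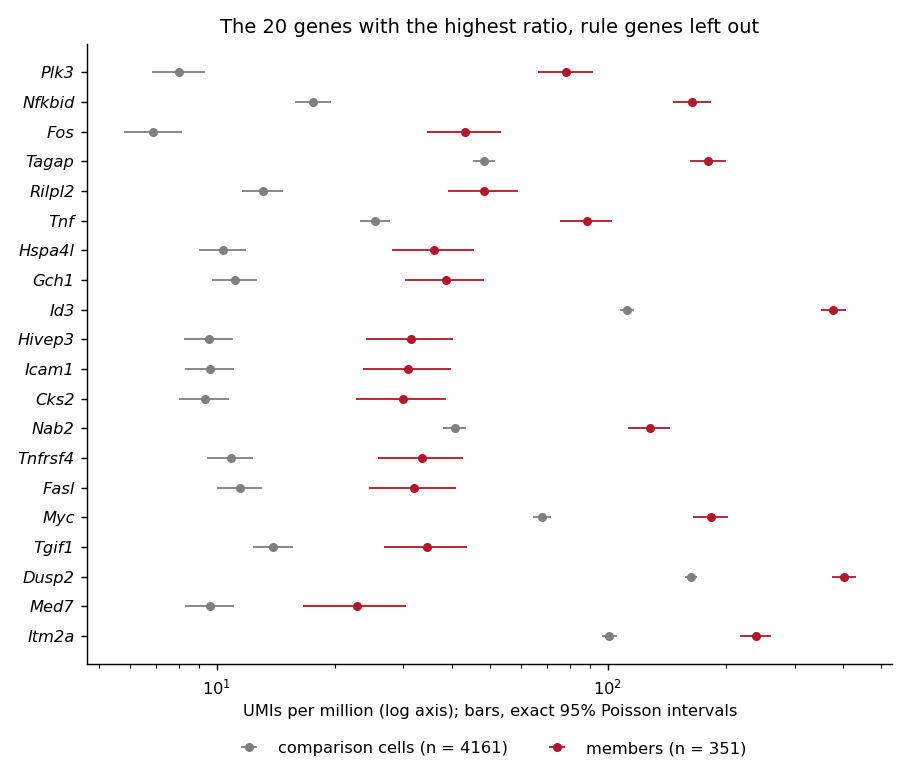
Level in CPM (log axis) of the 20 genes with the highest ratio of early-response (red) over comparison cells (grey), with exact 95% Poisson intervals. The 20 were chosen by this ratio. Intervals of both classes are apart for all of them, from Plk3 (78.0 against 8.02 CPM) down to Itm2a (239 against 101 CPM).

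Lower genes were few and thinly counted. Fra10ac1 had the lowest ratio, with 12 UMIs against 313 (log2 ratio -1.35, -2.32 to -0.53), and Dcaf6 (11 UMIs, -1.21), Acox3 (13 UMIs, -1.21) and Rab3a (10 UMIs, -1.14) followed. Tab1 (-1.12), Bbs9 (-1.10), Abi3 (-1.07), Slc16a5 (-1.03), BC147527 (-1.01) and Prcp (-0.99) completed the 10 lowest. All 12 genes at least 2-fold lower had 10 to 77 UMIs in the early-response cells. None of the 10 lowest stayed past 2-fold in all 14 alternative settings, and Fra10ac1 turned to 0.13 without cells holding 2 Trbv segments or other cells' markers. Ift20, the gene the study deleted, was at 53.7 CPM (44.0 to 65.0) in the early-response cells and 64.3 CPM (60.9 to 67.9) in the comparison cells, and its log2 ratio of -0.26 had an interval from -0.56 to 0.03.

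Gene lists described the transcripts by role, which is a measure of RNA and not of signalling activity. Of 24 AP-1 and other immediate-early genes 14 passed 10 CPM, 6 were at least 2-fold higher and none lower, and their median log2 ratio was 0.78. Besides Fos and Myc these were Ier2 (630 against 269 CPM, log2 ratio 1.23), Junb (528 against 235 CPM, 1.17), Zfp36, whose product TTP destabilizes cytokine mRNA (536 against 252 CPM, 1.09), and Csrnp1 (75.5 against 36.2 CPM, 1.06). Jun (0.39) and Jund (0.38) stood much lower than Fos and Junb.

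In the NF-kB list 17 of 18 genes passed, 3 were at least 2-fold higher (Nfkbid, Icam1, and Nfkbiz at 56.7 against 24.9 CPM) and the median was 0.48. Nfkbia, the inhibitor that NF-kB induces as negative feedback, was at 343 against 205 CPM (0.74, 0.62 to 0.86) and Rel, the c-Rel subunit, at 45.6 against 24.6 CPM (0.89, 0.55 to 1.22). The NFAT and calcineurin list had a median of 0.03 over 11 genes with none past 2-fold, and Nfatc1, which NFAT itself induces, had its highest ratio (0.72, 0.49 to 0.94). Of the MAP kinase feedback genes 6 of 11 passed and 2 were at least 2-fold higher, Dusp2 and Dusp5 (55.2 against 27.3 CPM, 1.02). The ERK inhibitor gene Spry1, under the minimum level, had 21 UMIs against 16.

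The signalling apparatus itself hardly differed. The 22 proximal TCR signalling genes had a median of 0.04 and none past 2-fold. Cd3e (1061 against 1031 CPM), Lck (820 against 833 CPM) and Cd4 (214 against 216 CPM) were level, and Lcp2, which encodes the adaptor SLP-76, had the highest ratio of the list at 231 against 148 CPM (0.65, 0.50 to 0.79). Negative regulators of TCR signalling had a median of 0.21 over 24 genes, none past 2-fold, from Sit1 (-0.29) to Sh2d2a (0.62). Cd5, a negative regulator whose level follows the strength of self-recognition in naive T cells, was at 436 against 309 CPM (0.50, 0.39 to 0.60) and Cd6 at 226 against 179 CPM (0.33, 0.19 to 0.48). Cd5 was not higher in every group of early-response cells, as given further below. Ly6c1, which is lower on strongly self-reactive naive cells, was at 417 against 439 CPM (-0.08, -0.18 to 0.03), and Ly6a at 314 against 348 CPM (-0.15, -0.27 to -0.03). The list of surface genes tied to self-reactivity, which holds these 4, had a median of 0.15 over 5 genes and none past 2-fold.

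Costimulators and checkpoints had 11 of 20 genes above the minimum, 3 of them at least 2-fold higher, and a median of 0.51. These were Tnfrsf4, Icos (58.8 against 25.3 CPM, 1.22, 0.91 to 1.51) and Cd274, which encodes PD-L1 (20.8 against 10.1 CPM, 1.04, 0.52 to 1.53). Cd40lg, the ligand by which T cells help B cells, was at 223 against 131 CPM (0.78, 0.63 to 0.92). Under the minimum, Pdcd1 (PD-1) had 37 UMIs against 86 (18.7 against 4.26 CPM) and Tnfrsf9 (4-1BB) 47 against 164 (23.8 against 8.12 CPM), while Lag3 and Tigit had 1 UMI each.

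Of 20 cytokine and chemokine genes 5 passed the minimum, of which Tnf was at least 2-fold higher (median 0.12), and the list summed to 1289 against 1168 CPM, most of it Ltb (889 against 929 CPM). In the early-response cells 9 of the 20 had no UMI, and Ccl1, Ccl3, Ccl4, Csf2, Il10, Il17a and Lif among them had none in the comparison cells either. Il2, the hallmark cytokine of activated CD4+ T cells, had 7 UMIs in 3 early-response cells and 4 UMIs in all comparison cells (3.55 against 0.198 CPM, log2 ratio 4.16, 2.19 to 6.38). Of these 7 UMIs 5 lay in 1 cell. Ifng and Il4 had 1 UMI each, and Ccl5 had 62 UMIs, 61 of them in 1 cell. Among helper lineage factors 4 of 14 passed, with Id3 at least 2-fold higher and a median of 0.22; Irf4, a factor whose level follows TCR strength, had 26 UMIs against 16 (13.2 against 0.792 CPM, log2 ratio 4.06, 3.103 to 5.05) and Tbx21 none. Il2ra, the receptor chain that activated cells add, had 18 UMIs against 125 (9.12 against 6.19 CPM), and the list of cytokine receptors and SOCS genes had a median of 0.03 over 12 genes, with Socs1 at 0.64 and Socs3 at -0.54.

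Among genes of growth, the 20 MYC target and ribosome biogenesis genes had a median of 0.30, with 19 above 0 and none past 2-fold, led by Gnl3 (84.6 against 49.6 CPM, 0.77) and Mat2a (0.60). Summed, the list stood at 3548 CPM in the comparison cells, at 3661 CPM in the 227 cells with a sum of 4 to 7 (log2 ratio 0.05, 0.002 to 0.09) and at 5346 CPM in the 124 cells with a sum of 8 or more (0.59, 0.54 to 0.64). Glycolysis genes had a median of -0.08 over 13 genes and cell cycle genes -0.10 over 10, none past 2-fold in either list. Mki67 and Cdk1 had no UMI in the 351 early-response cells. In the comparison cells their 50 and 23 UMIs lay in 10 and 12 of 4161 cells. With so few positive cells, 0 UMIs does not show a difference between the classes. The BCL2 and GADD45 list had a median of 0.22 over 7 genes, 2 of which were at least 2-fold higher, Bcl2a1b (28.9 against 12.8 CPM) and the pro-apoptotic Bcl2l11 (30.4 against 15.2 CPM). Interferon-stimulated genes had a median of 0.06 over 15 genes, none past 2-fold.

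Heat shock and chaperone genes were measured because dissociation can raise them with immediate-early genes. Their median was 0.41 over 11 genes, all above 0 and none past 2-fold. Hspa4l, an HSP70-family gene that the list does not hold, was among the 20 highest at 36.0 against 10.4 CPM (log2 ratio 1.80, 1.39 to 2.19). Within the list Hspa5, the chaperone of the endoplasmic reticulum, had the highest ratio (323 against 169 CPM, 0.93, 0.81 to 1.05), followed by Dnajb1 (255 against 166 CPM, 0.62). The stress-inducible Hspa1a (32.9 against 27.5 CPM, 0.26, -0.14 to 0.63) and Hspa1b (22.8 against 21.5 CPM, 0.09, -0.39 to 0.53) had intervals that included 0. Whether handling of the tissue had a part in the immediate-early signal was not tested.

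**Figure D3:**
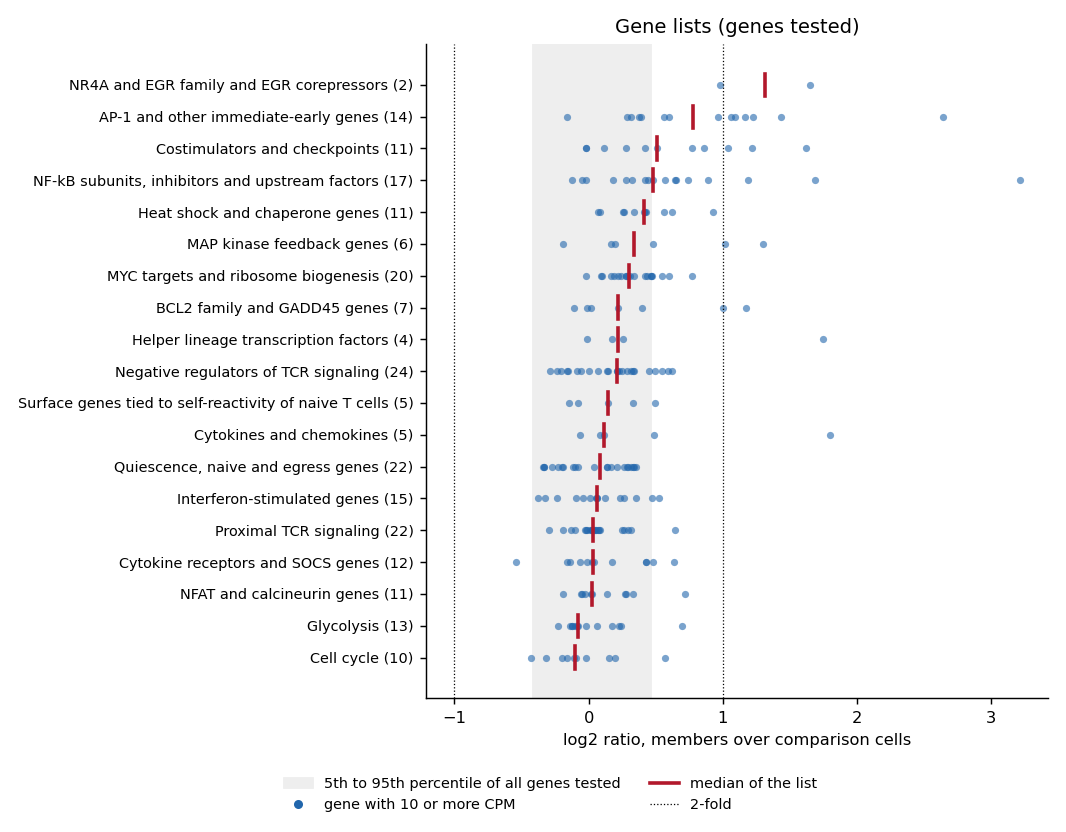
log2 ratio of early-response over comparison cells for each gene at 10 CPM or more (blue) in 19 lists, with the list's median (red) and, in grey, the 5th to 95th percentile of all 7064 genes. The immediate-early list (median 0.78) lies above that of all genes (0.03), and proximal TCR signalling (0.04) lies on it.

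The leading genes were also followed along the rule sum. Between a sum of 3 (218 cells) and 4 (101 cells), the edge of the class, Nfkbid was at 19.98 (12.9 to 29.5) and 38.2 CPM (23.6 to 58.4), Plk3 at 18.4 and 29.1 CPM, Tnf at 37.6 and 54.5 CPM, Myc at 76.7 and 89.1 CPM and Id3 at 153 and 147 CPM. The intervals of each gene overlapped across this edge. From a sum of 0 through 1, 2 to 3, 4 to 7 (227 cells) and 8 or more (124 cells), Nfkbid went from 17.6 through 20.6, 22.4 and 65.4 to 342 CPM. Id3 went from 112 through 110, 127 and 274 to 563 CPM. Nr4a3 went from 0.347 through 1.48, 2.82 and 5.51 to 95.2 CPM, and Egr3 from 0.792 through 1.35, 2.35 and 15.8 to 96.6 CPM. All 4 were highest at 8 or more. Nfkbid, Id3 and Tagap were named for their ratio in the cells with a sum of 4 or more. Their higher levels in those classes were thus partly set by that choice. Nfkbid, Id3 and Egr3 were higher at 4 to 7 than at 2 to 3 with intervals apart, while those of Nr4a3 overlapped there (2.22 to 11.4 and 1.46 to 4.93 CPM) and were apart between a sum of 0 and 1 (0.139 to 0.714 and 0.763 to 2.58 CPM). Nr4a2 had 0 UMIs at sums of 2 to 7 and 27.0 CPM at 8 or more. Tagap went from 48.2 through 62.1, 94.3 and 132 to 269 CPM.

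Leading genes of the resting state were lowest in the cells with the largest sums. Klf2, the factor that keeps T cells quiescent and in circulation, was at 1098, 1102, 1157 and 1211 CPM up to a sum of 4 to 7 and at 729 CPM in the cells with 8 or more. S1pr1, the egress receptor that Klf2 induces, was at 289, 294, 277, 260 and 173 CPM along the same classes. The 22 genes of the quiescence, naive and egress list summed to 8330 CPM at a sum of 0, to 9181 at 4 to 7 and to 7116 at 8 or more. Over all early-response cells both sides cancelled, with a median log2 ratio of 0.09 and none of 22 genes past 2-fold. The summed heat shock list stood at 4576, 5219 and 7515 CPM in the same 3 classes, ribosomal protein genes took a median of 35.2%, 34.7% and 31.4% of UMIs, and their part in these differences was not tested.

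**Figure D4:**
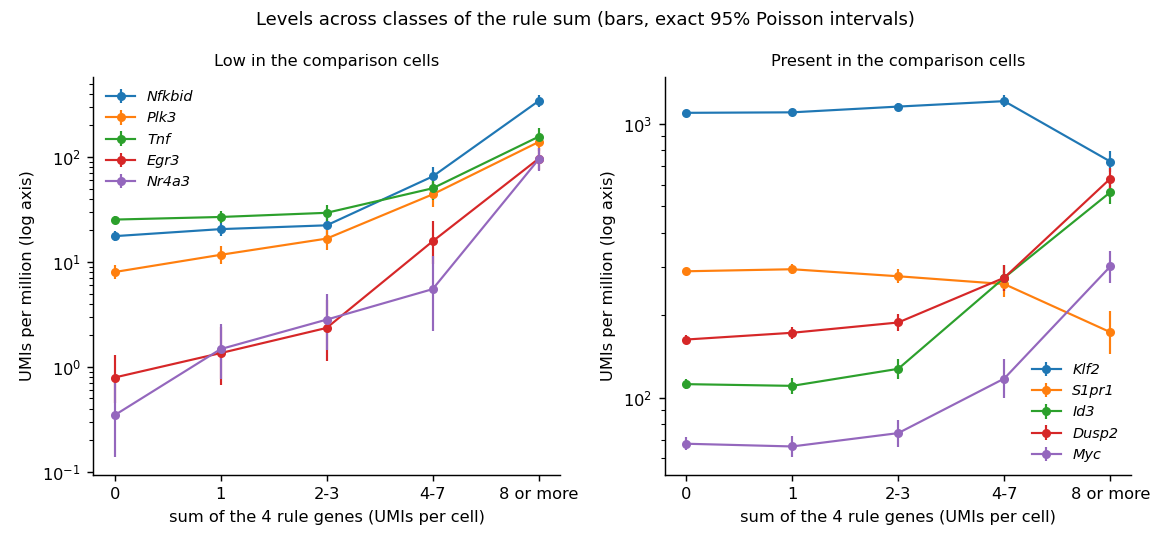
Level in CPM (log axis) of 10 genes in classes of the rule sum, with exact 95% Poisson intervals. Nfkbid, Plk3, Tnf, Egr3 and Nr4a3 (left) are highest at 8 or more, as are Id3, Dusp2 and Myc (right), where Klf2 and S1pr1 are lowest.

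The early-response cells differed in which rule genes made up their sum, and they were divided on these UMIs. In 234 cells Nr4a1, Egr1 and Egr2 gave at least 2 UMIs (factor-positive), in 83 cells these 3 genes were at 0 and Cd69 alone made up the sum (Cd69-only), and 34 cells had 1 factor UMI. At this depth 0 factor UMIs does not show that the factors were not expressed. Median depth was 5040 and 4922 UMIs in factor-positive and Cd69-only cells. The summed heat shock list had a log2 ratio over the comparison cells of 0.49 (0.46 to 0.52) and 0.16 (0.10 to 0.22), ribosomal protein genes took a median of 32.6% and 35.9% of UMIs, and their part in the differences between these groups was not tested. Of 2550 genes at 50 CPM or more over the filtered cells, 25 (0.98%) were at least 2-fold higher and 8 (0.314%) at least 2-fold lower in the factor-positive cells. The groups were not matched on the rule sum. Of the UMIs in early-response cells, 67 of 74 for Nr4a3 and 241 of 324 for Nfkbid lay at a sum of 8 or more. The genes named below were chosen after their values were seen.

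Several response transcripts were much higher in the factor-positive cells. Nr4a3 had 71 UMIs in them and 0 in the Cd69-only cells (53.9 CPM against an upper 95% bound of 8.04 CPM), Egr3 85 against 3 UMIs (64.6 against 6.54 CPM, 1.35 to 19.1, with 0.792 CPM, 0.453 to 1.29, in the comparison cells). Egr3 was thus above the comparison level in the Cd69-only cells too, on 3 UMIs. Irf4 had 22 against 3 UMIs (16.7 against 6.54 CPM), and the interval of its log2 ratio of 1.35 included 0 (-0.38 to 3.74). Its level in the Cd69-only cells (1.35 to 19.1 CPM) likewise lay above that of the comparison cells (0.453 to 1.29 CPM). Nfkbid was at 221 against 21.8 CPM, the latter close to the 17.6 CPM of the comparison cells. Id3 was at 492 against 107 CPM (log2 ratio 2.20, 1.78 to 2.65), Dusp2 at 521 against 122 CPM (2.09, 1.70 to 2.51), Myc at 225 against 63.2 CPM (1.83, 1.28 to 2.43) and Itm2a at 318 against 78.5 CPM (2.02, 1.52 to 2.55), and in the Cd69-only cells each of them was at or under its comparison level (112, 163, 67.8 and 101 CPM). Cd40lg was at 282 against 107 CPM (1.40) and Cd5 at 514 against 249 CPM (1.05). Both were under the comparison level in the Cd69-only cells. For Cd5 the intervals were apart there (205 to 298.5 CPM against 301.8 to 317.2 CPM), and Cd40lg stood at 131 CPM in the comparison cells.

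Several genes of the resting state, and others, were higher in the Cd69-only cells than in either other class. Klf2 was at 1678 CPM in them, 804 CPM in factor-positive and 1098 CPM in comparison cells (log2 ratio -1.06 of factor-positive over Cd69-only, -1.20 to -0.93). Klf3 was at 379, 158 and 178 CPM, Tsc22d3, the glucocorticoid-induced leucine zipper gene GILZ, at 532, 234 and 361 CPM in the same order. Ccr7, the lymph node homing receptor, was at 1295, 661 and 681 CPM, and Il7r at 641, 418 and 452 CPM. The quiescence list summed to 10545 CPM in Cd69-only, 7585 in factor-positive and 8330 in comparison cells. Other response genes were above the comparison level in the Cd69-only cells too. Tagap was at 214 CPM in Cd69-only, 176 CPM in factor-positive and 48.2 CPM in comparison cells, Tnfrsf4 at 41.4, 31.2 and 10.8 CPM, Icos at 54.5, 63.1 and 25.3 CPM and Nfkbiz at 56.7, 58.5 and 24.9 CPM in the same order. Junb was at 349, 583 and 235 CPM and Fos at 19.6 (9 UMIs, 8.97 to 37.2), 52.4 and 6.88 CPM (5.79 to 8.12). Plk3 was at 17.4, 102 and 8.02 CPM, and on 8 UMIs its interval in the Cd69-only cells (7.53 to 34.4 CPM) overlapped that of the comparison cells (6.83 to 9.35 CPM). The summed immediate-early list of the Cd69-only cells had a log2 ratio over the comparison cells of 0.39 (0.31 to 0.47) and the summed NF-kB list one of 0.25 (0.12 to 0.38), against 0.98 (0.93 to 1.02) and 0.71 (0.65 to 0.78) in the factor-positive cells. Jun, an AP-1 gene of that list, was at 192 CPM in Cd69-only, 82.0 CPM in factor-positive and 85.3 CPM in comparison cells, and Klf6 at 296, 136 and 123 CPM. The Cd69-only cells thus shared some of these transcripts. Their intervals for Nfkbid (10.5 to 40.1 CPM), Id3 (79.0 to 141 CPM) and Myc (42.3 to 90.8 CPM) included the comparison levels. For Nr4a3, 0 UMIs with an upper bound of 8.04 CPM cannot show whether it was above the 0.347 CPM of the comparison cells.

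**Figure D5:**
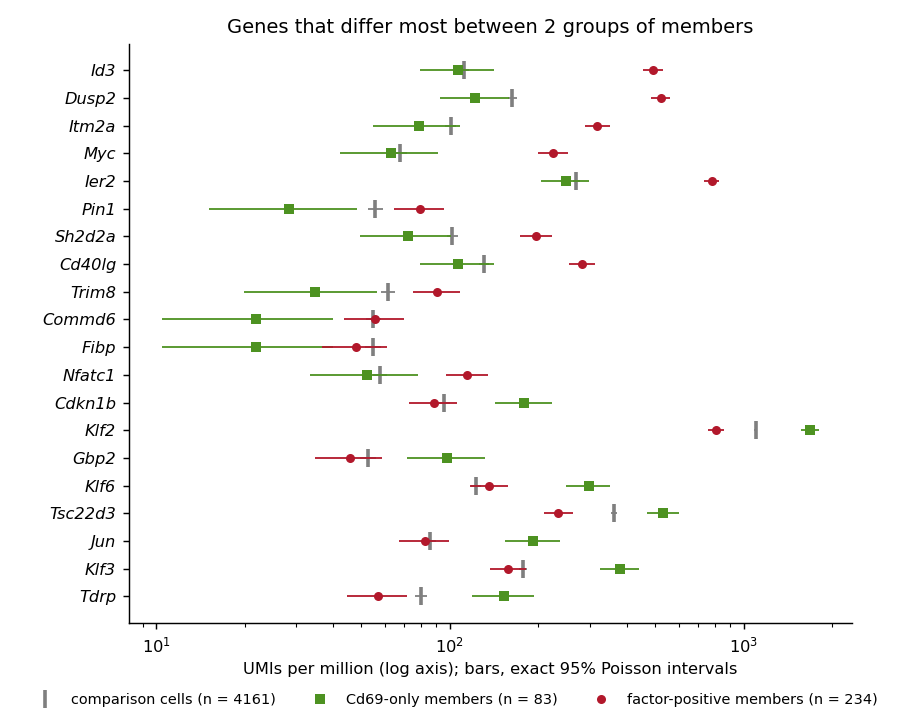
Level in CPM (log axis) of the 12 genes with the highest and the 8 with the lowest ratio of factor-positive (red) over Cd69-only (green) cells at 50 CPM or more, beside the comparison cells (grey), with exact 95% Poisson intervals. Id3, Dusp2, Itm2a, Myc and Ier2 are higher in the factor-positive cells than in both other classes, and Klf2, Klf3 and Tsc22d3 are highest in the Cd69-only cells.

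The early-response cells were spread over the TCR beta chain segments. A Trbv segment was read in 342 of 351 early-response and 4037 of 4161 comparison cells, and 21 of 23 segments occurred in the former. The most common, Trbv13-2, was the leading segment of 14.0% (10.5 to 18.2%) and 13.2% (12.1 to 14.2%). Trbv15 had 5.56% (3.38 to 8.54%) against 3.12% (2.61 to 3.71%), and Trbv19 5.56% (3.38 to 8.54%) against 8.82% (7.96 to 9.74%). Cells with 2 Trbv segments of at least 2 UMIs each, which can be doublets or cells with both alleles transcribed, made up 20.5% (16.4 to 25.1%) and 17.5% (16.4 to 18.7%).

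The early-response cells, chosen by their rule-gene UMIs, were set beside all filtered cells of each stimulated library. Levels of the stimulated cells that passed the same rule are not given here. Over the filtered cells, stimulated WT had 158 CPM of Nr4a1, 131 of Egr1, 57.2 of Egr2 and 302 of Cd69, and IFT20-KO 111, 119, 41.0 and 271 CPM, all under the values of the early-response cells that were chosen for them. CPM is a share of UMIs, and the stimulated WT cells held more UMIs each. A higher CPM in the early-response cells therefore need not mean more UMIs per cell. The same rule took 55.9% of 9166 filtered stimulated WT cells and 36.3% of 13583 IFT20-KO cells, at median depths of 12605 and 4822 UMIs against 4803 in the unstimulated library. With each cell thinned to 1500 UMIs, at least 2 rule-gene UMIs were left in 4.26% (3.79 to 4.76%) of unstimulated, 26.4% (25.5 to 27.3%) of stimulated WT and 23.8% (23.1 to 24.5%) of IFT20-KO cells. The 20 leading genes were not ordered alike in the early-response cells and the stimulated libraries. Tnfrsf4 was at 33.4 CPM against 357 in stimulated WT and 322 in IFT20-KO cells, Itm2a at 239 against 752 and 680 CPM, and Hivep3 at 31.4 against 229 and 258 CPM. Icam1 was at 30.9 against 12.6 and 12.3 CPM, Fasl at 31.9 against 11.8 and 12.3 CPM, Tagap at 180 against 94.3 and 74.1 CPM, and Gch1 at 38.5 against 35.1 and 34.1 CPM. These examples were chosen after their values were seen. Genotype, library and mouse cannot be told apart in these values.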

How the data were processed

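The 3 10x Genomics libraries were read as deposited: whole-number UMI counts per gene and barcode, which per the labels the authors made with Cell Ranger on mm10 (version 3.1.0 in the submitters' processing notes, while the study's methods name an earlier version). The labels name a 5′ v1.1 kit and the study's methods a 3′ v3 kit, and which was used could not be settled here. Total depth was 37325332 UMIs in the unstimulated, 117734032 in the stimulated WT and 106459650 in the IFT20-KO library. Of 31053 feature IDs 31011 matched GENCODE M21.

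Counts were summed over the cells of a class and scaled to UMIs per 1000000 (CPM). log2 ratios carry exact binomial intervals and levels exact Poisson intervals, both at 95% and for counting error alone. A gene was compared from 10 CPM over all filtered cells and counted when it was past 2-fold. Cells are not replicates, so no p-value was computed. No doublet caller was run. Named were the rule genes, Ift20, the 20 highest and 10 lowest log2 ratios without receptor segments, and genes of the lists. The cells, lists and comparisons were chosen with earlier results of these data known. The ratios and their intervals were tried on simulated class sums drawn as Poisson counts. That simulation had no cell-to-cell variation and no choice of cells by rule genes. It therefore says nothing on genes of which single cells hold a large share. Python 3.11.15, numpy 2.4.6 and scipy 1.17.1 were used, and 12 planned and 2 added alternatives were run. Values of some single genes are not reported here.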

Additional observations from a re-analysis of the deposited data

How the results depend on the processing

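Each class is part of 1 library, so nothing here speaks to variation between mice, and rare genes are limited by the 1974014 UMIs of the early-response cells. Of the 14 alternatives 2, the sum of 4 to 11 and the rarely seen markers, were chosen after seeing the data. The ratios of all 20 highest genes stayed above 0, 9 of them past 2-fold in every alternative. Those of 9 of the 10 lowest stayed below 0, none past 2-fold in every alternative. A changed minimum level leaves a ratio as it is, and most of these genes lie under the minimum of 50 CPM. Fra10ac1 turned to 0.13 without cells holding 2 Trbv segments or other cells' markers. That filter kept 94 early-response cells, since Ighm, Cst3 and Bst2 are among its markers, and 165 genes were then at least 2-fold higher and 341 lower, with fewer UMIs behind each. Its list medians were 1.87 (NR4A and EGR), 0.99 (immediate-early), 1.02 (costimulators), 0.58 (heat shock), 0.61 (cytokines), -0.14 (helper factors) and -0.076 (quiescence). With sums of 6 or more (188 cells) 82 genes were higher and 77 lower, and medians were 1.72 (NR4A and EGR), 0.57 (heat shock), 0.57 (self-reactivity, 0.15 with all members), 0.56 (MYC targets) and -0.09 (quiescence). Over the 14 alternatives the MYC target median ran from 0.05 to 0.56 and the NF-kB median from 0.28 to 0.74. With sums of 3 or more (569 cells) 19 were higher and 3 lower, and the NR4A and EGR median was 0.97. With sums of 4 to 11, 17 were higher, and medians were 0.92 (NR4A and EGR) and 0.24 (heat shock). Comparison cells matched on depth gave 70 higher and 26 lower genes and 0.41 for the BCL2 list (0.22 in the main setting). Thinning to 1500 UMIs, where members were taken at 2 or more rule-gene UMIs, gave 95 and 226, so depth and threshold changed together. Fewer UMIs were counted in both of these settings. A minimum of 50 CPM left 9 higher and 1 lower and 0.28 for costimulators. A minimum of 10 CPM in the mean of both classes gave 3.74 for NR4A and EGR, as Nr4a3 and Egr3 then enter, and 0.40 for BCL2. Members with 2 or more UMIs of Nr4a1, Egr1 and Egr2, Cd69 not counted, gave a quiescence median of -0.11 and 0.08 for BCL2. The BCL2 median was 0.13 against all filtered cells with a sum under 4. It was 0.14 under the filter on Trbv segments and other cells' markers. The remaining alternatives left the counts within 1.5 times, which does not mean the same genes. With Cd69 not counted and 2 or more factor UMIs required, 15 genes were lower, 3 of them among the 12. Rule genes and threshold changed together there. No paired analysis was possible because each condition has 1 library.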
